A study of Homo sapiens with 2 samples.

Results

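The genes described here encode the proteasome, its activators and the factors that assemble it. They were taken from the table of A549 cells by name, as the symbols PSMA, PSMB, PSMC, PSMD, PSME, PSMF or PSMG followed by a number, without pseudogenes and without the interferon-inducible subunits PSMB8, PSMB9 and PSMB10. This gave 43 of the 13137 genes in the table, of which 14 belong to the 20S core, 17 to the 19S cap, 5 to the activators and 7 to assembly. PSMA8 and PSMB11, which are known from testis and thymus, were not listed in the table and were not analysed here. PSMC3IP, whose symbol begins like those of the members, encodes a protein that binds PSMC3 and was left out. Of the 43, 39 carried a Gene Ontology component term with the word proteasome in the table. The exceptions were PSMG1, PSMG2, PSMG3 and PSMG4.

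The proteasome degrades proteins that have been tagged with ubiquitin. Its 20S core is a barrel of stacked rings, with outer alpha rings that gate the entrance and inner beta rings that hold the proteolytic sites. The 19S cap binds the ubiquitin chain, removes it, unfolds the substrate with a ring of ATPases and feeds it into the core, while other activators open the gate without ATP. Subunits are built into the particle with the help of dedicated chaperones, and cancer cells, with their high protein turnover, depend on proteasome activity.

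A549 is a human lung adenocarcinoma cell line. Polyclonal A549 lines were made by lentiviral infection and puromycin selection to carry either an shRNA against SOX2 (H1TetO-shRNA-SOX2) or a scrambled shRNA (H1TetO-shRNA-Con), each behind a doxycycline-inducible H1 promoter, and both were kept with doxycycline for 4 days. Each line was infected and selected apart from the other, so that an effect of the hairpin and a difference between the lines cannot be told apart. Digital gene expression counted a short tag per mRNA molecule in 1 library of each line. The table has columns marked SC and S1. SC was read as shRNA-Con and S1 as shRNA-SOX2, which no label states outright. The libraries held 2304184 tags on genes for shRNA-Con and 2093816 for shRNA-SOX2, and levels are given in CPM, the tags of a gene scaled per-million to these gene tags. Where 2 values stand together, shRNA-Con comes first and the library labelled shRNA-SOX2 second. SOX2, the targeted gene, had 16 and 23 tags (ratio 1.58, interval 0.8 to 3.2, adjusted p = 0.333, Fisher's exact test). SOX2 tags were thus not fewer where the labels place the SOX2 shRNA, and every direction below is between libraries so labelled. In bulk RNA, fewer cells of a type and less RNA per cell cannot be told apart. Among epithelial keratins, KRT8 had 7702 and 12729 tags and KRT18 had 10318 and 7887, while KRT19 had 35 and 127. The epithelial adhesion genes CDH1, with 50 and 50 tags, and EPCAM, with 8 and 4, were low, as was the blood cell gene PTPRC with 2 and 2, and the lung transcription factor gene NKX2-1 and the surfactant genes SFTPB and SFTPC were not listed.

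With 1 library per condition there was no spread between replicates. Each gene's tags were set against the rest of the gene tags in Fisher's exact test (two-sided), adjusted by the method of Benjamini and Hochberg over all 13137 genes, and a gene was called at an FDR of 0.001, the threshold of the study. A call speaks of these 2 libraries rather than of the conditions, and the 95% intervals given with ratios (shRNA-SOX2 over shRNA-Con) cover counting error only.

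Proteasome genes did not move in 1 direction. Of the 43 members, 12 had more tags per gene tag in the library labelled shRNA-SOX2 and passed the test (called higher), while 6 were lower and 25 did not pass the test. Of all 13137 genes, 9.53% were called higher and 12.2% lower. Proteasome mRNAs are abundant, with a median level of 147.1 CPM in shRNA-Con against 33.9 CPM for all genes of 20 tags or more, and abundant genes pass a counting test more readily. Among the 6237 genes whose tags summed to 100 or more, 16.6% were called higher and 22.5% lower. Of the 41 members with that many tags 29.3% were higher and 14.6% were lower, so that the share of higher calls lay above that background and the share of lower calls below it. These members were still more abundant than that background, with a median of 745 tags against 260, so the shares are not matched for abundance. The numbers of calls depended on how the libraries were scaled, which moves every gene alike. The share of all genes called under the other scalings is not given here, so those counts have no background beside them. With edgeR's TMM factors 12 members were higher and 3 lower, so that 80.0% of the calls were higher against 66.7% with gene tags. When the libraries were scaled to all clean tags, 8 were higher and 7 lower (53.3% higher). Under TMM the lower calls of PSMA3, PSMB6 and PSMG1 were lost, and with clean tags the higher calls of PSMA1, PSMB1, PSMB5 and PSMD6 were lost and PSMA7 was called lower. In all, 8 higher members and 3 lower members were called under each of the 4 scalings tried. If a biological coefficient of variation of 0.1 between cultures was assumed in edgeR's exact test, only PSME3 was called of the 43 members. Of all 13137 genes, 1166 were called with that assumption.

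The members ranged in log2 ratio (shRNA-SOX2 over shRNA-Con) from -1.24 for PSMD4, which had 18 tags in all, to 0.87 for PSME3. With gene tags, 5 of the 41 members with at least 100 tags were 1.5-fold higher (12.2%) and 4 were 1.5-fold lower (9.76%), where 17.2% and 25.4% of all genes with that many tags were. Over all 43 members these counts were 5 higher and 5 lower, but 9 and 5 with TMM factors and 3 and 7 with clean tags. The other scalings move the folds of all genes too, and the share of all genes under them is not given here. The standard deviation of the log2 ratio was 0.47 over the 41 members and 0.79 over the 6237 genes. This spread and the 1.5-fold shares include counting error, which is smaller with more tags. The members had a median of 745 tags against 260, so neither comparison is matched for abundance. A ratio above 1 was found in 24 of the 41 (58.5%) and in 42.8% of the genes. The median log2 ratio was 0.10 for the 42 members of 20 tags or more and -0.10 for the 10045 genes with as many. With clean tags these medians were -0.01 and -0.22.

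**Figure D1:**
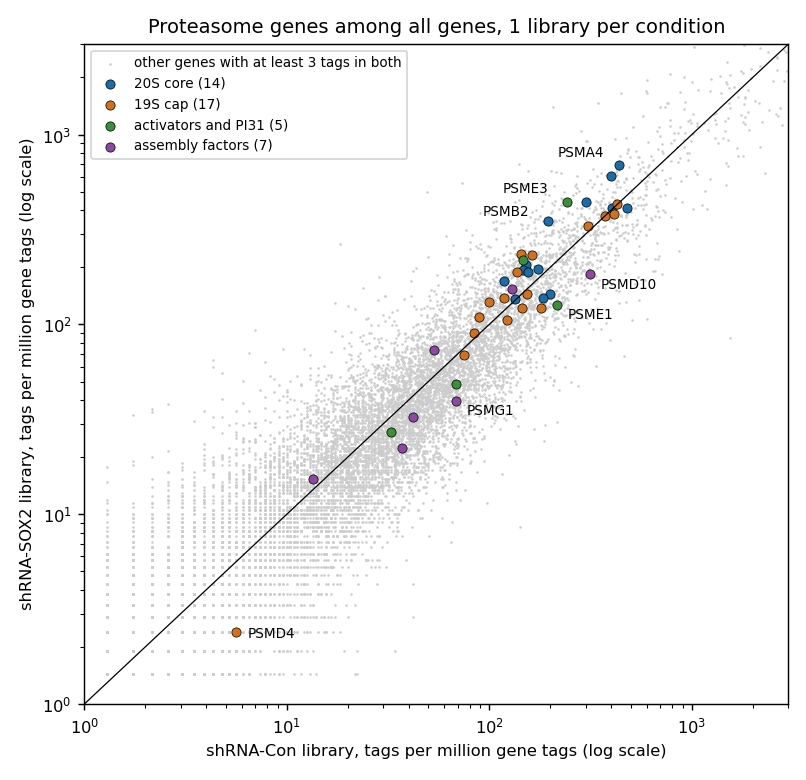
Level of each proteasome member (coloured by group) and of other genes with at least 3 tags in both libraries (grey) in the shRNA-Con library on the x axis and the library labelled shRNA-SOX2 on the y axis, in tags scaled per-million to gene tags on log scales, with some of the most abundant other genes outside the axes. Most members sit close to the line of equal levels among the more abundant genes, and PSME3, PSMB2 and PSMA4 lie above it and PSMD10, PSME1 and PSMG1 below it.

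Among the called members, the greatest changes were those of PSME3, PSMB2, PSMG1, PSMD10 and PSME1, of which the first 2 were higher and the other three lower. Their promoters are shown to let the sequences of members that moved in opposite directions be set side by side. They run from 250 bases before to 50 bases after the annotated start, 5′ to 3′ on the gene's own strand, and were taken from RefSeq on GRCh38.p14. Capitals mark matches to the antioxidant response element (TGACNNNGC), the CCAAT box (CCAAT), the E-box (CACGTG), the site of nuclear respiratory factor 1 and the SOX sites CATTGT and CTTTGT, searched on both strands. None of these motifs contains another.
PSME3, chr17:42833147-42833446, plus strand: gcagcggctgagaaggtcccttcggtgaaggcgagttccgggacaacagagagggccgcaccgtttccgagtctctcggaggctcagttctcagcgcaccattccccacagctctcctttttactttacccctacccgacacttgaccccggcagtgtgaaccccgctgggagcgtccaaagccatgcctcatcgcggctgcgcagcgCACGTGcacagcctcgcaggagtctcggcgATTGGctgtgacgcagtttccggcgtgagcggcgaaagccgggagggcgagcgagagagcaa
PSMB2, chr1:35641477-35641776, minus strand: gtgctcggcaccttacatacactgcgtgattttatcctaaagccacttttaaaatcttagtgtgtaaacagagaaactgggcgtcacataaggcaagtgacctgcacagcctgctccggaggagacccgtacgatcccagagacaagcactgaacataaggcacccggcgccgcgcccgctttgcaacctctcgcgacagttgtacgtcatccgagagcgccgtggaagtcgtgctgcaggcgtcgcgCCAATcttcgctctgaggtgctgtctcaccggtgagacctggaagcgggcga
PSMG1, chr21:39183402-39183701, minus strand: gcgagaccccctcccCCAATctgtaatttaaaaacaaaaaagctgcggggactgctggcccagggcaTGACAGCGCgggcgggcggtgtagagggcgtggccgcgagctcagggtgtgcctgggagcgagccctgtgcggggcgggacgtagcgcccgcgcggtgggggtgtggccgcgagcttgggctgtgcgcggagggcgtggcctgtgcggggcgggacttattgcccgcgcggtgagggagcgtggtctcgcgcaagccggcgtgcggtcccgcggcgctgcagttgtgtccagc
PSMD10, chrX:108091493-108091792, minus strand: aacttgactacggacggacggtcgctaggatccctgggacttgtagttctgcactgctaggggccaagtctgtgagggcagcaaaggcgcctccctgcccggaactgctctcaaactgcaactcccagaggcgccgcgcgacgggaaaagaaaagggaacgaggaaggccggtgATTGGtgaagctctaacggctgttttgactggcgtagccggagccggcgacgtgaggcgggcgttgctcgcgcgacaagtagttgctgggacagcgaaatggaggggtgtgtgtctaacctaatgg
PSME1, chr14:24135944-24136243, plus strand: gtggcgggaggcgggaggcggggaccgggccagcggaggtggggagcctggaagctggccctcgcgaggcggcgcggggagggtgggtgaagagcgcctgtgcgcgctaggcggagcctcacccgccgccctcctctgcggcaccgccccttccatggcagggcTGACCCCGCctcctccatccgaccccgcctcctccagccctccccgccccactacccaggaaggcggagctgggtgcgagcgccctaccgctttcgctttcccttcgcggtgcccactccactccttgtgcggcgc

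PSME3, PSMB2, PSMG1 and PSMD10 each held a CCAAT box, PSMG1 and PSME1 each held an antioxidant response element, and PSME3 also held an E-box. None of these 5 promoters held either SOX site. For 37 members RefSeq promoters were at hand, with 45 starts among them, as 7 of the members had several. PSMA7, PSMB1, PSMB6, PSMB7, PSMD4 and PSMG3 had no entry. The antioxidant response element, the site bound by the factors NFE2L1 and NFE2L2 that are known to raise proteasome genes, was found in 31.1% of the member promoters and in 13.3% of all 35116 promoters (14.9% of those of genes with at least 100 tags). The 14 members with it were spread over both directions, with 2 called higher, 2 called lower and 10 not called. CCAAT boxes were in 40.0% of the member promoters, 34.6% of all and 35.0% of those of genes with at least 100 tags, and in 18 members, of which 7 were higher, 3 lower and 8 not called. The E-box was in 6.67% against 7.26% of all and 10.1% for genes with at least 100 tags. The site of nuclear respiratory factor 1 was in 4.44% against 1.24% and 2.20%, both promoters being overlapping starts of PSMA4. The SOX sites CATTGT and CTTTGT were each in 6.67% of the member promoters, and in 10.8% and 16.1% of all (6.48% and 11.1% for genes with at least 100 tags). These are matches of letters in a window, not binding sites, and some starts of a gene share bases.

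The 20S core was the group with the most higher members, 7 of 14, with 2 lower and 5 not called, and its median log2 ratio was 0.34. The shares were 50% higher and 14.3% lower, where 16.6% and 22.5% of genes with at least 100 tags were. The core had a median of 797 tags against 260 for those genes, so its members pass a counting test more readily. By size alone, 3 of the 14 were 1.5-fold higher (21.4%) and 0 were 1.5-fold lower. Of genes with at least 100 tags, 17.2% were 1.5-fold higher and 25.4% were 1.5-fold lower. In the alpha ring, PSMA4 rose most, with 1002 and 1453 tags (ratio 1.6, interval 1.47 to 1.73, adjusted p = 5.98e-29, Fisher's exact test). PSMA6 had 923 and 1274 tags (ratio 1.52, interval 1.39 to 1.66, adjusted p = 6.25e-21, Fisher's exact test). PSMA2 had 695 and 921 tags (ratio 1.46, interval 1.32 to 1.61, adjusted p = 7.45e-13, Fisher's exact test). These 3 alpha subunits, with PSMA1 at 351 and 432 tags (ratio 1.35, interval 1.17 to 1.56, adjusted p = 0.000132, Fisher's exact test), were higher together, although the call of PSMA1 was lost with clean tags (adjusted p = 0.00644, Fisher's exact test). PSMA3 was the only alpha subunit called lower, with 457 and 303 tags (ratio 0.73, interval 0.629 to 0.846, adjusted p = 0.000118, Fisher's exact test). Its call was lost with TMM factors (adjusted p = 0.00161, Fisher's exact test). PSMA5 had 399 and 412 tags (ratio 1.14, interval 0.988 to 1.31). PSMA7, the alpha subunit with the most tags in shRNA-Con, had 1097 and 859 (ratio 0.862, interval 0.787 to 0.943, adjusted p = 0.00428, Fisher's exact test) and did not pass. The alpha subunits, which stand in equal number in the particle, did not have equal tags, and ranged in shRNA-Con from 152.3 CPM for PSMA1 to 476.1 CPM for PSMA7. Since a molecule gives a tag whatever its length, these levels were not divided by length. RefSeq names 4 pseudogenes of PSMA6 and 3 of PSMA2, whose tags may be shared with them, so that these values are uncertain. The same limit holds for each of the 21 of 43 members with a pseudogene in RefSeq. Among the called members these include PSMA1, PSMA3, PSMD2 and PSMD14. PSMA3 overlaps the antisense gene PSMA3-AS1, and PSMA6 overlaps PRORP-PSMA6. Use of strand in the counting is not given in the sources used here.

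The beta ring carries the proteolytic sites on PSMB6 (caspase-like), PSMB7 (trypsin-like) and PSMB5 (chymotrypsin-like, the site blocked by bortezomib), and these did not move together. PSMB5 was higher, with 339 and 406 tags (ratio 1.32, interval 1.14 to 1.53, adjusted p = 0.000841, Fisher's exact test). PSMB6 was lower, with 424 and 289 tags (ratio 0.75, interval 0.644 to 0.873, adjusted p = 0.000715, Fisher's exact test). PSMB7 had 357 and 394 tags (ratio 1.22, interval 1.05 to 1.41, adjusted p = 0.0255, Fisher's exact test) and was not called. The calls of both PSMB5 and PSMB6 depended on the scaling. With clean tags PSMB5 was not called (adjusted p = 0.022, Fisher's exact test), and with TMM factors PSMB6 was not (adjusted p = 0.00677, Fisher's exact test). Of the beta subunits without proteolytic activity, PSMB2 rose most, with 449 and 733 tags (ratio 1.8, interval 1.59 to 2.02, adjusted p = 1.1e-21, Fisher's exact test). PSMB1 had 271 and 356 tags (ratio 1.45, interval 1.23 to 1.7, adjusted p = 3.12e-05, Fisher's exact test), and its call was lost with clean tags (adjusted p = 0.00134, Fisher's exact test). PSMB3 had 931 and 860 tags (ratio 1.02, interval 0.925 to 1.12) and PSMB4 had 307 and 284 (ratio 1.02, interval 0.863 to 1.2), and neither was called.

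**Figure D2:**
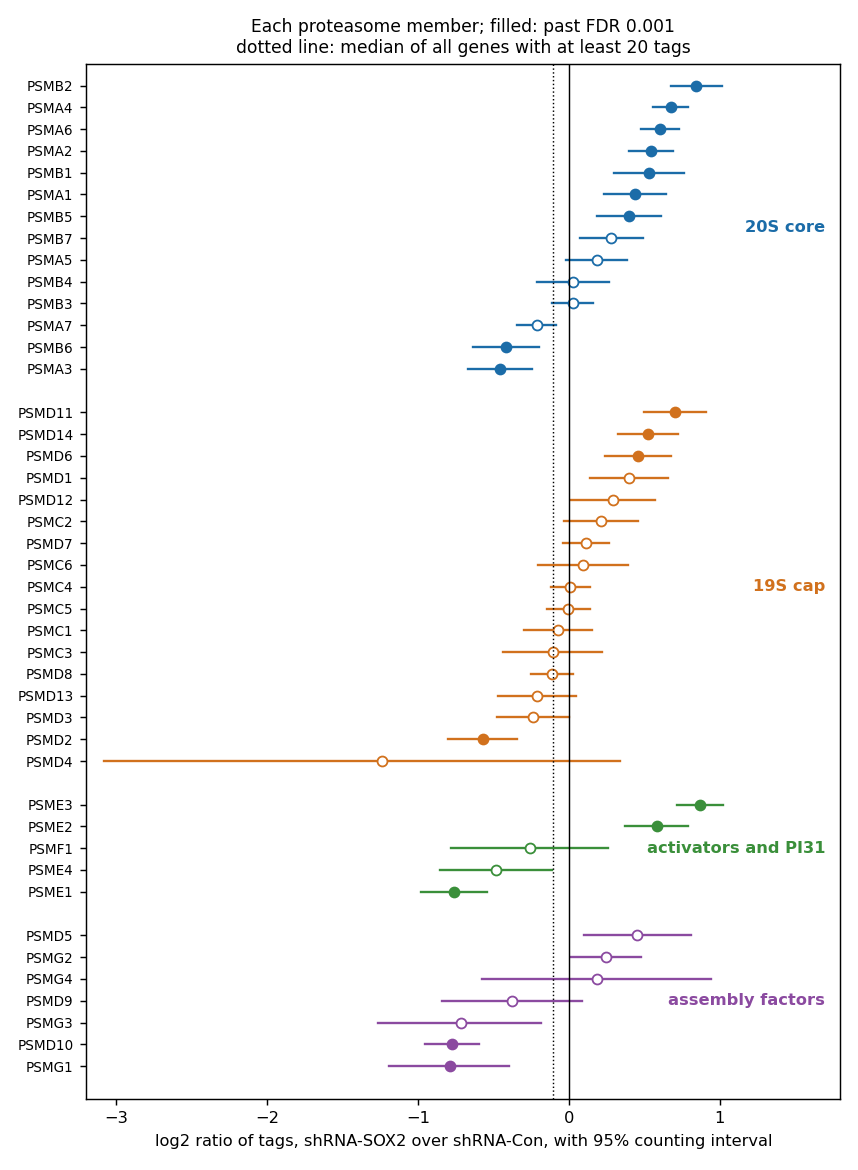
Log2 ratio of tags (library labelled shRNA-SOX2 against shRNA-Con) on the x axis for each member, grouped and ordered by its ratio, with lines for the 95% interval from counting error and filled points for members past FDR 0.001. Most of the 20S core lies to the right of 0, the members of the 19S cap lie on both sides, and PSME1, PSMD10 and PSMG1 lie furthest to the left among the filled points.

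In the 19S cap fewer members were called. Of its 17 members 3 were higher (17.6%), 1 was lower (5.88%) and 13 were not called. Of genes with at least 100 tags, 16.6% were higher and 22.5% lower. The median log2 ratio of the cap was 0.05 over the 16 members of 20 tags or more (-0.06 with clean tags). Among the ATPases of its base, which unfold the substrate, 0 of 6 were called in Fisher's exact test, 0 had an unadjusted p under 0.05 and 0 were called in edgeR's exact test with any assumed spread. Of genes with at least 100 tags, 60.9% were not called in Fisher's exact test. PSMC4 had 988 and 904 tags (ratio 1.01, interval 0.919 to 1.1). PSMC5 had 858 and 778 tags, with an interval of the ratio from 0.904 to 1.1. The other 4 had fewer tags and wider intervals. PSMC1 had 352 and 304 tags (ratio 0.95, interval 0.812 to 1.11) and PSMC2 had 273 and 287 (ratio 1.16, interval 0.977 to 1.37). PSMC3 had 172 and 145 tags (ratio 0.928, interval 0.739 to 1.16) and PSMC6 had 194 and 188 (ratio 1.07, interval 0.868 to 1.31). RefSeq names 13 pseudogenes of PSMC1, so its value is uncertain. Summed, the ATPases stood at 1231.2 and 1244.6 CPM (ratio 1.01, interval 0.958 to 1.07).

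Of the base subunits that are not ATPases, PSMD2, a scaffold of the base, was lower, with 415 and 254 tags (ratio 0.673, interval 0.574 to 0.789, adjusted p = 4.12e-06, Fisher's exact test). PSMD1, the other large scaffold, had 229 and 274 tags (ratio 1.32, interval 1.1 to 1.58, adjusted p = 0.00838, Fisher's exact test). PSMD4, a ubiquitin receptor, had only 13 and 5 tags, fewer than any other subunit of the core or cap (ratio 0.423, interval 0.118 to 1.26, adjusted p = 0.201, Fisher's exact test). With so few tags a decrease of PSMD4 within that interval could not be told from no change.

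The lid removes ubiquitin before a substrate enters the core. PSMD14, its deubiquitinating enzyme, was higher, with 373 and 488 tags (ratio 1.44, interval 1.26 to 1.65, adjusted p = 9.45e-07, Fisher's exact test). PSMD11, a lid scaffold, had 331 and 490 tags (ratio 1.63, interval 1.41 to 1.88, adjusted p = 6.19e-11, Fisher's exact test). PSMD6 had 315 and 393 tags (ratio 1.37, interval 1.18 to 1.6, adjusted p = 0.000158, Fisher's exact test), and its call was lost with clean tags (adjusted p = 0.00561, Fisher's exact test). The other 5 lid subunits were not called. PSMD12 had 206 and 229 tags (ratio 1.22, interval 1.01 to 1.48) and PSMD7, the inactive partner of PSMD14, had 705 and 692 (ratio 1.08, interval 0.971 to 1.2). PSMD8 had 948 and 797 tags (ratio 0.925, interval 0.841 to 1.02), PSMD13 had 283 and 222 (ratio 0.863, interval 0.721 to 1.03) and PSMD3 had 333 and 257 (ratio 0.849, interval 0.719 to 1.0). PSMD6 overlaps the antisense genes PSMD6-AS1 and PSMD6-AS2.

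The activators held members that moved in opposite directions. PA28 is a ring on the end of the core that opens its gate. In the cytosol it is made of PSME1 (PA28 alpha) and PSME2 (PA28 beta), which are known to be induced together by interferon gamma and to favour the production of antigenic peptides. In these libraries they moved apart. PSME1 was lower, with 495 and 265 tags (ratio 0.589, interval 0.506 to 0.685, adjusted p = 1.98e-11, Fisher's exact test). PSME2 was higher, with 337 and 458 tags (ratio 1.5, interval 1.3 to 1.73, adjusted p = 1.69e-07, Fisher's exact test). Within a library, which needs no scaling, there were 0.681 PSME2 tags for each PSME1 tag in shRNA-Con (interval 0.591 to 0.783) and 1.73 in the other library (1.48 to 2.02). The pair was chosen after the values were seen, and these ratios restate the same counts rather than add evidence. These genes lie near each other on chromosome 14 with 1 gene, EMC9, between them. RefSeq names 6 pseudogenes of PSME2, and how tags shared with them were counted is not given in the sources used here, so the value of PSME2 is uncertain. PSME3 (PA28 gamma), which forms a nuclear ring of its own, had the largest increase of all members, with 559 and 927 tags (ratio 1.82, interval 1.64 to 2.03, adjusted p = 1.16e-28, Fisher's exact test). PSME4 (PA200), a large nuclear activator, had 157 and 102 tags (ratio 0.715, interval 0.552 to 0.923, adjusted p = 0.0264, Fisher's exact test). PSMF1 (PI31), which binds the core and was first described as an inhibitor, had 75 and 57 (ratio 0.836, interval 0.582 to 1.2). Neither PSME4 nor PSMF1 was called.

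Among the 7 assembly factors, 2 were lower (28.6%, against 22.5% of genes with at least 100 tags) and 5 were not called. The median log2 ratio of the assembly factors was -0.37. None was called higher (0 of 7) in Fisher's exact test, where 16.6% of genes with at least 100 tags were. Of the assembly factors, 2 with a ratio above 1 (PSMD5 and PSMG2) had an unadjusted p under 0.05. In edgeR's exact test 0 were called with any assumed spread. PSMG1 (PAC1), which forms a dimer with PSMG2 that guides the alpha ring, was lower, with 158 and 83 tags (ratio 0.578, interval 0.438 to 0.759, adjusted p = 0.000236, Fisher's exact test). With TMM factors PSMG1 missed the threshold (adjusted p = 0.00102, Fisher's exact test). Its partner PSMG2 (PAC2) had 297 and 320 tags (ratio 1.19, interval 1.01 to 1.39, adjusted p = 0.0859, Fisher's exact test) and was not called. PSMG3 (PAC3) had 85 and 47 tags (ratio 0.609, interval 0.417 to 0.879), and its partner PSMG4 (PAC4) had 31 and 32 (ratio 1.14, interval 0.671 to 1.93). Neither of those passed the test. PSMD10 (gankyrin), a chaperone of the 19S base that is also known as an oncoprotein, was lower, with 723 and 384 tags (ratio 0.585, interval 0.515 to 0.662, adjusted p = 8.48e-17, Fisher's exact test). The other chaperones of the base were not called. PSMD5 had 123 and 153 tags (ratio 1.37, interval 1.07 to 1.75) and PSMD9 had 97 and 68 (ratio 0.771, interval 0.557 to 1.06). RefSeq names 3 pseudogenes of PSMD10, and the gene overlaps ATG4A. When members with a pseudogene were left out, the median of the assembly factors was 0.18, above 0.

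**Figure D3:**
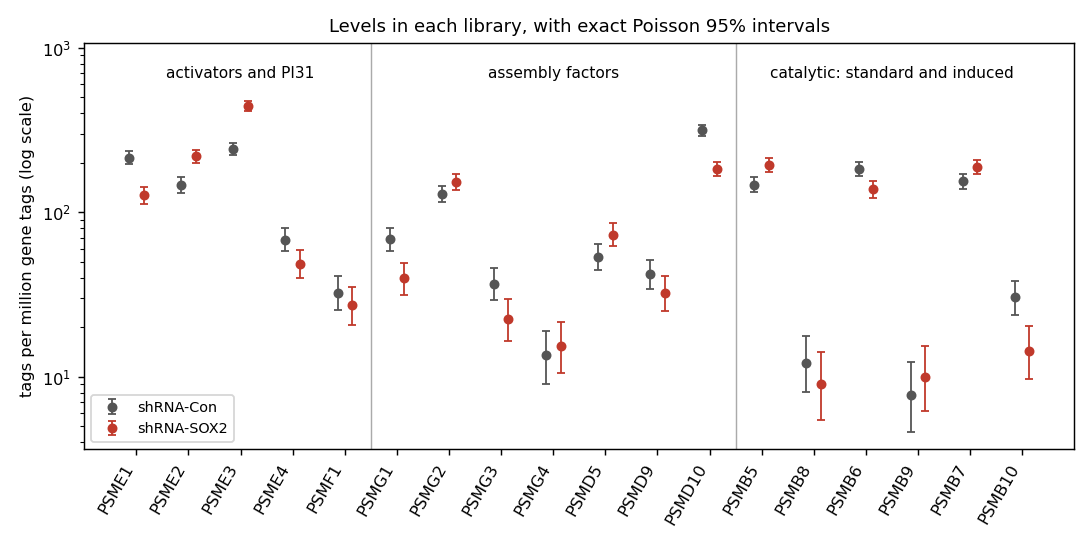
Level in tags scaled per-million to gene tags (log scale) of the activators with PI31, the assembly factors, and the standard catalytic subunits each beside its interferon-inducible counterpart, in shRNA-Con (grey) and the library labelled shRNA-SOX2 (red), with exact Poisson 95% intervals. PSME1, PSMG1 and PSMD10 stand lower and PSME2 and PSME3 higher in red, and PSMB8, PSMB9 and PSMB10 lie far below PSMB5, PSMB6 and PSMB7 in both libraries.

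The inducible subunits that replace the catalytic ones in the immunoproteasome were scarce in both libraries. PSMB8 had 28 and 19 tags and PSMB9 had 18 and 21. PSMB10 had 70 and 30 tags (ratio 0.472, interval 0.297 to 0.733, adjusted p = 0.00178, Fisher's exact test). None of the 3 (0 in each direction) passed Fisher's exact test at FDR 0.001, and PSMB10 alone had an unadjusted p under 0.05. In shRNA-Con there were 0.0826 PSMB8 tags for each tag of PSMB5, 0.0425 PSMB9 tags for each of PSMB6 and 0.196 PSMB10 tags for each of PSMB7. In the other library these values were 0.0468, 0.0727 and 0.0761. For PSMB10 the intervals of the libraries did not overlap (0.149 to 0.254 and 0.0507 to 0.111), and for PSMB8 and PSMB9 they did. These pairs were also chosen after the values were seen, and they use the same counts.

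Summed over its members, the 20S core stood at 3472.8 and 4286.9 CPM (ratio 1.23, interval 1.2 to 1.27). The 19S cap stood at 3032.7 and 3203.2 CPM (ratio 1.06, interval 1.02 to 1.09), and its interval lay below that of the core. These intervals cover counting error of the sums only, not the spread among members. The log2 ratios of single members overlapped, from -0.45 to 0.85 in the core and from -1.24 to 0.70 in the cap. The activators stood at 704.4 and 864.0 CPM (ratio 1.23, interval 1.15 to 1.31) and the assembly factors at 657.1 and 519.1 CPM (ratio 0.79, interval 0.73 to 0.855). A sum is led by its most abundant members, and for the activators the sum was higher while their median log2 ratio was -0.26. With clean tags the ratio of the 19S cap was 0.98, on the other side of 1.

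**Figure D4:**
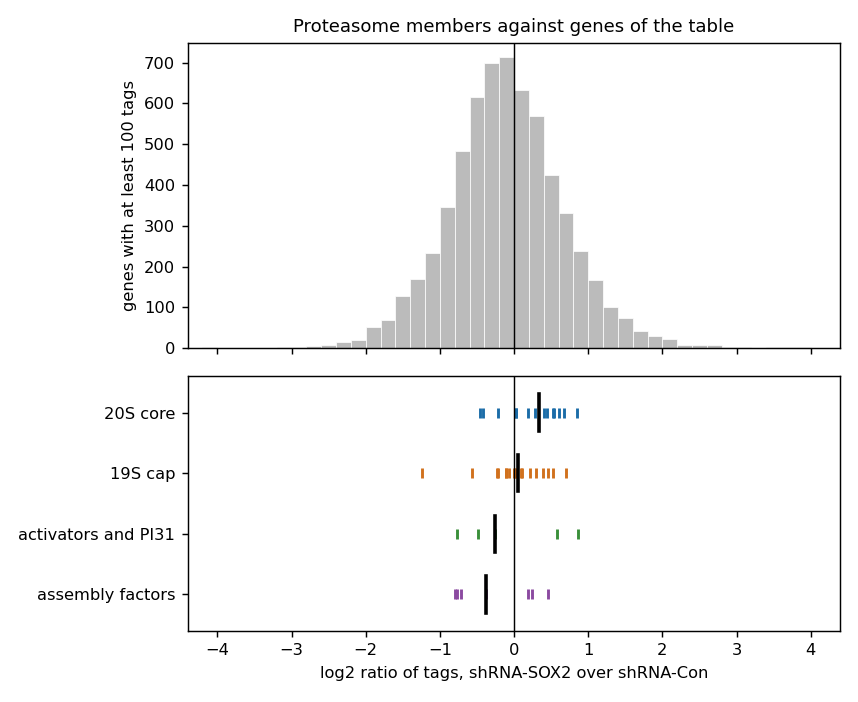
Histogram of the log2 ratio of tags (shRNA-SOX2 over shRNA-Con) for the 6237 genes with at least 100 tags (upper panel, number of genes), and each member as a coloured tick with the group median over members of at least 20 tags as a black bar (lower panel). The medians are 0.34 for the 20S core, 0.05 for the 19S cap, -0.26 for the activators and -0.37 for the assembly factors, and the members stay within the central part of the histogram.

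Other genes of the pathway were taken from a list of 26 that work with the proteasome but lack the PSM name, of which 24 were in the table. Of the 24, 2 were higher, 5 were lower and 17 were not called, and the median log2 ratio was -0.24. Called or not, 9 of them had a ratio above 1 (37.5%) and 15 a ratio below 1. Of all genes with at least 20 tags, 44.9% had a ratio above 1. Most uncalled partners given below with their tags had a ratio above 1, and most of those left out had a ratio below 1. The shares were 8.33% higher and 20.8% lower, where 16.6% and 22.5% of genes with at least 100 tags and 9.53% and 12.2% of all genes were. VCP (p97), the ATPase that pulls ubiquitinated proteins out of membranes and complexes, had the highest ratio of the list, with 961 and 1983 tags (ratio 2.27, interval 2.1 to 2.46, adjusted p = 2.31e-101, Fisher's exact test). Its cofactors were not called, with 152 and 158 tags for UFD1L (ratio 1.14, interval 0.91 to 1.44) and 497 and 465 for NPLOC4 (ratio 1.03, interval 0.905 to 1.17). The shuttle factors, which carry ubiquitinated proteins to the cap, were split. RAD23B was higher, with 807 and 889 tags (ratio 1.21, interval 1.1 to 1.33, adjusted p = 0.000408, Fisher's exact test), a call that was lost with clean tags. UBQLN1 was lower, with 522 and 334 tags (ratio 0.704, interval 0.612 to 0.809, adjusted p = 3.47e-06, Fisher's exact test).

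NFE2L2 (NRF2), a transcription factor of the antioxidant response, was lower, with 225 and 100 tags (ratio 0.489, interval 0.383 to 0.622, adjusted p = 8.05e-09, Fisher's exact test). NFE2L1, its relative that is known to raise proteasome genes when the proteasome is inhibited, had 610 and 452 tags (ratio 0.815, interval 0.72 to 0.922, adjusted p = 0.00394, Fisher's exact test) and was not called. AKIRIN2, which brings proteasomes into the nucleus, was lower, with 168 and 64 tags (ratio 0.419, interval 0.309 to 0.562, adjusted p = 6.51e-09, Fisher's exact test). UBA6, a ubiquitin-activating enzyme, was lower, with 168 and 56 tags (ratio 0.367, interval 0.266 to 0.499, adjusted p = 5.54e-11, Fisher's exact test), while UBA1, the main enzyme of that kind, had 245 and 252 (ratio 1.13, interval 0.946 to 1.35). The cap subunits without the PSM name were not called, with 609 and 595 tags for ADRM1 (ratio 1.07, interval 0.959 to 1.21) and 535 and 517 for SHFM1 (ratio 1.06, interval 0.941 to 1.2). POMP, the chaperone that matures the 20S core, had 599 and 579 (ratio 1.06, interval 0.947 to 1.19).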

How the data were processed

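Per the labels and the methods of the study, RNA from 4 µg of total RNA per line was purified on oligo(dT) beads and sequenced as digital gene expression tags at the Beijing Genomics Institute. The authors deposited whole-number tag counts per Entrez Gene ID, without normalization. The submitters' processing notes name hg19, and the aligner and annotation are not given in the sources used here. The authors' deposited TPM is the count scaled per-million to clean tags and was used only to recover the clean tags (3516266 for shRNA-Con and 3456233 for shRNA-SOX2). The authors' own log2 ratios, p-values and FDR were not used.

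Ratios were computed from counts divided by gene tags, with counts below 3 set to 3. Fisher's exact test (scipy 1.17.1) with Benjamini-Hochberg adjustment was run over 13137 genes. Intervals are 95% Clopper-Pearson for ratios and exact Poisson for levels. The 19 rows with an Entrez ID but no symbol (0.0535% and 0.0372% of tags) were kept. TMM factors and tests with an assumed spread came from edgeR 4.0.16, median-ratio factors from DESeq2 1.42.0. The test was tested on simulated data. Every member is named with its tags, with full statistics for those past FDR 0.001 and the 3 largest folds in each direction, as are partners past FDR 0.001, the inducible subunits and SOX2. Partners that were not called were chosen after their values were seen, and most of those left out had a ratio below 1. The values of 1 partner past FDR 0.001 are not reported here. Printed promoters belong to the 5 called members with the largest changes. Members and lists were chosen with earlier results of these data known. Pairs within a library were chosen after the values were seen. GRCh38 coordinates appear only with the promoters.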

Additional observations from a re-analysis of the deposited data

How the results depend on the processing

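The alternatives were TMM factors, median-ratio factors, clean tags, a minimum of 10 tags, FDR 0.05, an assumed biological coefficient of variation, 2-fold in place of 1.5-fold, a minimum of 100 tags, PSMD5, PSMD9 and PSMD10 counted in the 19S cap, and members with no pseudogene. No paired analysis was possible because shRNA-Con and shRNA-SOX2 have 1 library each, which also leaves no library to omit.

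With an assumed coefficient of 0.1 in edgeR's exact test, 1 member was higher and 0 were lower, against 12 and 6 with Fisher's exact test, and 1 partner was higher and 3 were lower, against 2 and 5. With 0.2 or 0.4 none of the members or partners was called (0 in each direction), while 2 members with 0.2 and 0 with 0.4 had an unadjusted p under 0.05. Of all 13137 genes, 1166 were called with 0.1, 113 with 0.2 and 0 with 0.4. With TMM or median-ratio factors 3 members were lower. Of the 24 partners, 1 was higher and 8 were lower with clean tags, and 2 were higher and 10 were lower at FDR 0.05. A looser FDR adds calls among all genes too, and the share of all genes called at FDR 0.05 is not given here.

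The 5 members 1.5-fold higher became 9 with TMM or median-ratio factors, 3 with clean tags and 0 at 2-fold. The 5 that were 1.5-fold lower became 1 at 2-fold and 2 among members with no pseudogene. Scalings moved every gene alike, by 0.07 (log2) with either set of factors and by -0.11 with clean tags. Shares of all genes called or past 1.5-fold under these scalings are not given here. The summed ratios of all members, the 20S core and the 19S cap were 1.13, 1.23 and 1.06 with gene tags. They were 1.19, 1.298 and 1.11 with TMM factors, 1.18, 1.296 and 1.11 with median-ratio factors, and 1.04, 1.14 and 0.98 with clean tags, with which that of the activators was 1.13. The median of the assembly factors, -0.37, was 0.18 without members that have a pseudogene, which leaves fewer genes. Of 19 members recomputed singly, none changed direction under the 3 scalings, and 18 lost their call with an assumed coefficient of 0.2. The ratio of PSMD4 is limited by its 18 tags, and the reason for this low count was not tested.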
